A study of Mus musculus with 16 samples.

Results

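The libraries described here were the 2 untreated and the 3 LPS + Dex RNA-seq libraries of NELF-B KO bone marrow-derived macrophages (BMDM), 5 of the 16 libraries of the series, and they were selected by their labels alone. NELF-B KO meant LysM-Cre:NELF-B fl/fl, in which Cre made from the myeloid LysM promoter removes a floxed part of Nelfb. WT meant LysM-Cre:NELF-B wt/wt, so that both genotypes carried Cre. The macrophages were grown from the marrow of male C57BL/6 mice aged 8 weeks. They were left untreated or given 10 ng/ml LPS together with 100 nM Dex for 1 hr. KO mice A and B gave a library in each condition, and KO mouse C gave an LPS + Dex library only. All 3 KO mice also gave an LPS library without Dex, which served for the comparison with LPS alone.

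LPS is a bacterial cell wall component that macrophages sense through Toll-like receptor 4, and it switches on cytokine, chemokine and feedback genes through NF-kB and MAP kinases. Dexamethasone (Dex) is a synthetic glucocorticoid that activates the glucocorticoid receptor, which induces some genes and represses many inflammatory ones. NELF, of which NELF-B is a subunit, holds RNA polymerase II in a paused state shortly after it has started transcription. The comparison asked which transcripts differed between untreated KO macrophages and KO macrophages that had received both stimuli.

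Each library held between 30648000 and 38526000 reads in the 9614 genes analysed, as recovered from the deposited values. Levels are given as log2 CPM, where CPM is the number of reads of a gene scaled to the normalised size of its library. In these libraries 3 reads corresponded to between 0.0762 and 0.104 CPM. The Pearson correlation of log2 CPM across 9614 genes, a description over genes within libraries, was 0.977 between the untreated libraries, 0.973 to 0.993 among the LPS + Dex libraries and 0.933 to 0.959 between the groups. One WT untreated library, that of WT mouse A, stood apart, with correlations of 0.830 to 0.909 with these 5. Nelfb (chr2:25199712-25211489, minus strand) was at 3.53 and 4.38 log2 CPM in the untreated libraries of KO mice A and B, and at 3.28, 4.22 and 3.53 in the LPS + Dex libraries of KO mice A to C. The 5 WT untreated and LPS + Dex libraries lay between 5.64 and 6.21 log2 CPM for Nelfb, above every KO library. Reads over all exons were counted, including those outside the deleted part. Nelfb differed by -0.28 ± 0.39 (log2, SE) between LPS + Dex and untreated, adjusted p = 0.946. The other NELF subunits and DSIF subunits, 6 genes in all with Nelfb, gave 0 calls. At the shares of all genes called, 4.10% higher and 1.58% lower, few calls would be met among 6 genes.

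All 10 macrophage markers were among the genes analysed. Their summed level was 30505 to 38077 CPM in the untreated libraries and 31427 to 40421 CPM in the LPS + Dex libraries. Of the 10, Cd14 and Lyz2 were called higher, and 1 was with mouse as a replicate block. Of 39 markers of 6 other cell classes, 8 were among the genes analysed, and none of the 8 was called. Over all genes, 4.10% were called higher and 1.58% lower, so that few calls would be met among 8 genes in any case. With the replicate block, 1 stromal marker was called higher. The 4 stromal markers (Col1a1, Col1a2, Col3a1 and Dcn) summed to 80.9 to 89.6 CPM in the untreated libraries and to 105 to 145 CPM in the LPS + Dex libraries. The neutrophil marker S100a8 was at 11.7 to 18.3 CPM and 20.6 to 41.5 CPM, respectively. Single markers of T, B and dendritic cells overlapped between the groups. They were higher in both libraries of mouse B than in those of mice A and C. Cd4 was at 32.1 CPM untreated and 37.9 CPM with LPS + Dex in mouse B, and at 5.14 to 6.66 CPM otherwise. Cd79b was at 39.7 and 31.0 CPM in mouse B and at 14.0 to 17.6 CPM otherwise. Batf3 was at 6.12 and 4.60 CPM in mouse B and at 1.25 to 1.65 CPM otherwise. The 6 erythroid and mast cell markers were not among the genes analysed. The part of these cells in the results below was not tested. In these bulk libraries, fewer cells making a transcript and less transcript per cell cannot be told apart.

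LPS + Dex changed 546 of 9614 genes in the KO macrophages, with 394 higher (4.10% of all genes) and 152 lower (1.58% of all genes). A gene was called when its adjusted p was under 0.1 and its change exceeded 1.5-fold. In all 546 called genes the LPS + Dex libraries did not overlap with the untreated ones, as was also the case for 28.4% of all genes. It follows from this alone that both mice measured in both conditions changed in the called direction. The rises were larger than the falls. Among the genes called higher, 273 rose more than 2-fold, 124 more than 4-fold and 36 more than 16-fold, whereas 43 genes fell more than 2-fold and 2 more than 4-fold. The median change was 1.39 (log2) over the genes called higher and -0.84 over those called lower. A further 183 genes changed by more than 1.5-fold and were not called. With mouse as a replicate block, 505 genes were higher (5.25%) and 236 lower (2.45%), among them 388 and 140 of the genes called without it. Without the untreated library of mouse B the counts were 313 higher and 54 lower, and without that of mouse A 350 higher and 83 lower. In both cases the remaining untreated library was assumed to vary like the other groups.

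**Figure D1:**
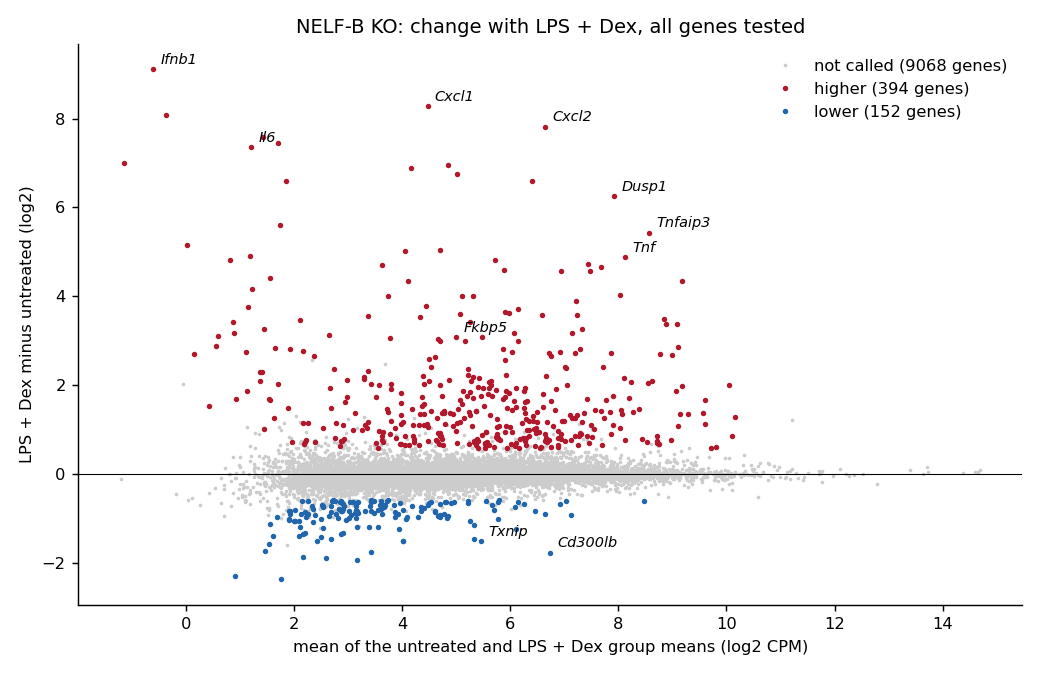
Change with LPS + Dex (log2, vertical axis) against the mean of the group means (log2 CPM, horizontal axis) for each of 9614 genes in NELF-B KO BMDM. Red points are the 394 genes called higher, blue points the 152 called lower and grey points the genes not called; the largest changes are upward.

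Inflammatory cytokines and chemokines made up most of the largest rises. Of 23 cytokine and growth factor genes tested, 16 were higher and 0 lower, with a median change of 2.81 (log2) against -0.01 over all genes. Of 16 chemokine genes tested, 10 were higher and 0 lower, with a median of 2.90. These counts compare with the 4.10% of all genes that were called higher. The cytokine median does not depend on the fitted value of Ifnb1, whose lower bound also lies above it.

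Ifnb1, which encodes interferon beta, had 0 reads in both untreated libraries and 309, 1052 and 410 reads in the LPS + Dex libraries of mice A to C. Taking 3 reads per untreated library as the floor, it was at least 215-fold higher. Cxcl1, a neutrophil-attracting chemokine, was at 0.29 and 0.38 log2 CPM in the untreated libraries of mice A and B and at 8.46, 8.91 and 8.49 in the LPS + Dex libraries of mice A to C, a rise of 8.29 ± 0.18 (log2, SE; adjusted p = 1.61e-07). Its neighbour Cxcl2, with the same activity, was at 2.68 and 2.79 untreated and at 10.45, 10.67 and 10.55 with LPS + Dex, a rise of 7.82 ± 0.13 (adjusted p = 4.94e-08). In both chemokine genes the mice lay within 1 log2 unit of each other in each condition, far less than the difference between conditions.

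Csf3, the granulocyte colony-stimulating factor, was at -3.26 and -1.45 log2 CPM untreated and at 5.02, 6.07 and 4.59 in mice A to C with LPS + Dex, a rise of 7.58 ± 0.62 (adjusted p = 0.000197). Il6, a cytokine of the acute-phase response, was at -2.95 and -1.98 untreated and at 4.78, 5.48 and 4.44 with LPS + Dex, a rise of 7.36 ± 0.50 (adjusted p = 7.56e-05). Mouse B had the higher level in both conditions for these 2 genes, and the same-mouse differences were 8.28 and 7.51 for Csf3 and 7.72 and 7.45 for Il6. Il1b, which encodes interleukin-1 beta, was at 1.90 and 1.36 untreated and at 8.19, 8.83 and 8.14 with LPS + Dex, a rise of 6.76 ± 0.26 (adjusted p = 3.04e-06). Il1a, which encodes interleukin-1 alpha, was at -1.82 and -1.06 untreated and at 4.82, 5.96 and 4.71 with LPS + Dex, a rise of 6.61 ± 0.48 (adjusted p = 0.000112).

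Cxcl10, an interferon-inducible chemokine that attracts T cells, rose by 6.88 ± 0.26 (adjusted p = 3.04e-06), from 1.10 and 0.38 log2 CPM to 7.65, 7.88 and 7.33 in mice A to C. Tnfsf9, the ligand of the costimulatory receptor 4-1BB, was at 1.36 and 1.38 untreated and at 8.45, 8.36 and 8.17 with LPS + Dex, a rise of 6.96 ± 0.10 (adjusted p = 3.94e-08). Gem, which encodes a small GTP-binding protein, rose by 7.45 ± 0.23 (adjusted p = 9.87e-07). Each of these 3 genes was at or below 1.38 log2 CPM in both untreated libraries.

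Sele and Areg were nearly absent from the untreated libraries. Sele, the adhesion molecule E-selectin, had 2 and 0 reads in the untreated libraries of mice A and B and 422, 532 and 326 in the LPS + Dex libraries of mice A to C, a ratio of 482 with a 95% exact interval from 133 to 3982. Areg, the EGF receptor ligand amphiregulin, had 0 and 1 reads untreated and 111, 202 and 212 with LPS + Dex, a ratio of 395 with an interval from 70.6 to 15636. The intervals cover counting error only. Both genes were called higher, with adjusted p = 6.34e-05 for Sele and 2.41e-05 for Areg.

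**Figure D2:**
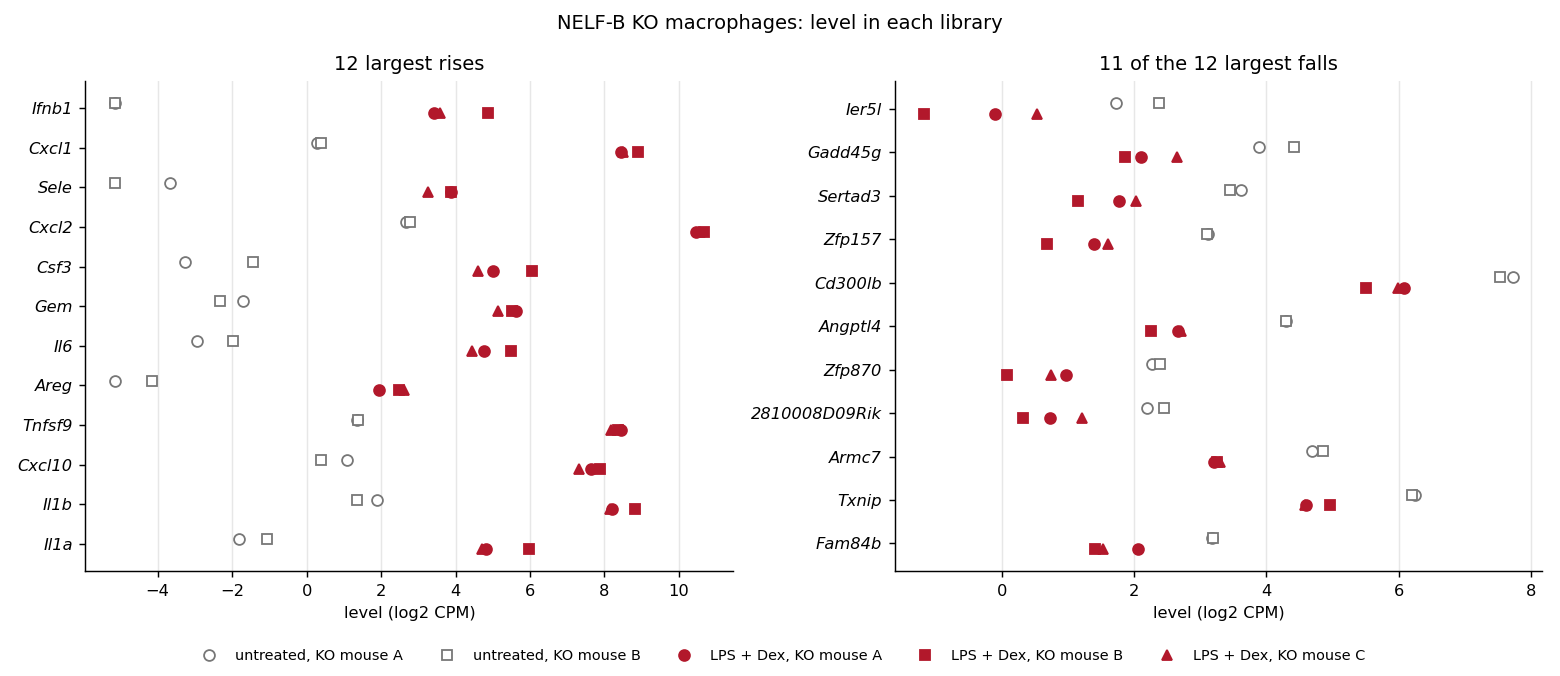
Level (log2 CPM) in each of the 5 libraries for the 12 largest rises (left panel) and for 11 of the 12 largest falls (right panel) among the called genes. Open grey symbols are the untreated libraries and filled red symbols the LPS + Dex libraries, and the symbol shape marks the KO mouse. The genes were chosen among those whose groups do not overlap. Ifnb1 sits at the value of 0 reads when untreated.

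Promoter windows from RefSeq (GRCm38.p6), reaching from 250 bases before to 50 bases after each start, were matched to 7787 of the 9614 genes. At least 1 match to the NF-kB consensus on either strand was found in 12.2% of all genes with a window, in 20.8% of the 317 such genes called higher and in 10.5% of the 124 called lower. The 12 largest rises included 9 genes with a window, and 5 of these held a match. A match is a description of the letters and not a binding site. The stretches around the matches of these 5 genes are shown because they carry the rises described above, and that of Nfkbia because it encodes the inhibitor of NF-kB described in the next paragraphs. Each is written on the strand of its gene, with the match in capitals. Where matches overlapped or there were several, a single one is shown. The stretches lie at chr5:90891149-90891208 (plus strand) for Cxcl1, chr5:90903777-90903836 (plus) for Cxcl2, chr5:92348958-92349017 (minus) for Cxcl10, chr5:30013045-30013104 (plus) for Il6, chr4:88522876-88522935 (minus) for Ifnb1 and chr12:55492648-55492701 (minus) for Nfkbia, all upstream of the start.
Cxcl1: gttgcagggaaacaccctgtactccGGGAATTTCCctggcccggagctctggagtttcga
Cxcl2: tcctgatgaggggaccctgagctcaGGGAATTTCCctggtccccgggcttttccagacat
Cxcl10: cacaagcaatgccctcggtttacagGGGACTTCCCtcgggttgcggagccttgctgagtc
Il6: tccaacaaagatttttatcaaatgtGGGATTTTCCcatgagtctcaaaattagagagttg
Ifnb1: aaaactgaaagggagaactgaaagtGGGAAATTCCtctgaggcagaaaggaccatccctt
Nfkbia: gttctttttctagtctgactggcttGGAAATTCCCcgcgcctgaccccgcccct

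Cytokine genes of the lists also differed between the mice in the untreated state. Il10, the anti-inflammatory cytokine interleukin-10, was at 2.03 log2 CPM in the untreated library of mouse A and at 4.60 in that of mouse B, and at 7.99, 8.25 and 8.17 in the LPS + Dex libraries of mice A to C. Its same-mouse differences were therefore 5.96 and 3.64, and its fitted rise was 4.82 ± 0.62 (adjusted p = 0.00255). Il12b, a subunit shared by interleukin-12 and interleukin-23, was at -2.11 and 0.41 untreated and at 3.41, 2.99 and 3.50 with LPS + Dex. Both genes were chosen after their values were seen, for the distance between the mice. Among all genes called higher, the same-mouse differences were more than 1 log2 unit apart in 21.

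Immediate-early transcription factor genes, which cells switch on without new protein synthesis, gave 19 higher and 1 lower of 26 tested. Over all genes, 4.10% were higher and 1.58% lower. The median change of the list was 2.05 (log2). Egr1 was at 2.70 and 3.52 log2 CPM in the untreated libraries of mice A and B and at 9.88, 9.56 and 9.67 in the LPS + Dex libraries of mice A to C, a rise of 6.60 ± 0.22 (adjusted p = 1.51e-06). Maff, a small basic leucine zipper factor, rose by 5.03 ± 0.25 (adjusted p = 1.28e-05), and Egr3, which belongs to the same zinc finger family as Egr1, by 4.82 ± 0.24 (adjusted p = 1.4e-05). Mouse A had the larger same-mouse rise in all 3 genes. The member called lower was Klf10, which was at 6.06 and 6.12 untreated and at 5.62, 5.38 and 5.48 with LPS + Dex, a fall of 0.60 on the log2 scale with an adjusted p of 0.00497. It was not called with mouse as a replicate block.

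The NF-kB subunit and feedback list gave 14 higher and 0 lower of 19, against 4.10% and 1.58% of all genes. Its median was 1.32 (log2). Tnfaip3, which encodes the ubiquitin-editing inhibitor A20, was at 5.88 and 5.83 log2 CPM untreated and at 11.25, 11.39 and 11.22 in mice A to C with LPS + Dex, a rise of 5.43 ± 0.10 (adjusted p = 5.85e-08). Nfkbia, which encodes the inhibitor IkB-alpha, was at 7.50 and 7.27 untreated and at 10.81, 10.50 and 11 with LPS + Dex, a rise of 3.39 ± 0.20 (adjusted p = 3.2e-05). Nfkbiz, which encodes a nuclear IkB protein, rose by 2.86 ± 0.29 (adjusted p = 0.000649). Each of the 3 was well above both untreated libraries in every LPS + Dex library.

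Feedback regulators of MAP kinase and cytokine signalling and of mRNA decay gave the largest share of calls among the functional lists. Of 21 tested, 17 were higher and 0 lower, against 4.10% and 1.58% of all genes, with a median of 1.61 (log2). Dusp1, a phosphatase that inactivates MAP kinases, was at 4.86 and 4.74 log2 CPM untreated and at 10.95, 10.87 and 11.33 in mice A to C with LPS + Dex, a rise of 6.25 ± 0.17 (adjusted p = 5.48e-07). Ppp1r15a, which directs a phosphatase to the translation factor eIF2-alpha, rose by 4.72 ± 0.14 (adjusted p = 9.06e-07). Dusp2, another phosphatase of this family, rose by 4.59 ± 0.14 (adjusted p = 9.87e-07). The same-mouse rises of Dusp1 were 6.09 and 6.12, and those of Ppp1r15a were 4.61 and 4.62.

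Prostaglandin, costimulatory, adhesion and pattern-recognition genes gave 14 higher and 0 lower of 23, with a median of 1.38 (log2). Ptgs2, the inducible cyclooxygenase COX-2, was at 2.50 and 1.88 log2 CPM untreated and at 7.33, 7.51 and 6.81 in mice A to C with LPS + Dex, a rise of 5.03 ± 0.28 (adjusted p = 2.5e-05). Ccrl2, a chemokine receptor-like protein, rose by 4.58 ± 0.19 (adjusted p = 5.94e-06), and Clec4e, the receptor Mincle, by 3.16 ± 0.27 (adjusted p = 0.000265). Metabolic enzymes, transporters and metabolite receptors gave 13 higher and 0 lower of 22, with a median of 1.01. The counts of both lists compare with 4.10% higher and 1.58% lower over all genes. Irg1, which makes itaconate, was at 7.71 and 6.68 untreated and at 10.77, 10.42 and 10.53 with LPS + Dex, a rise of 3.38 ± 0.27 (adjusted p = 0.000175). Pfkfb3, a regulator of glycolysis, rose by 2.69 ± 0.26 (adjusted p = 0.000592), and Adora2a, an adenosine receptor, by 2.02 ± 0.19 (adjusted p = 0.0004).

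Genes known to be induced by the glucocorticoid receptor gave 11 higher and 0 lower of 22, against 4.10% and 1.58% of all genes. Their median was 1.16 (log2). After Dusp1, the largest rises were those of Errfi1, an inhibitor of EGF receptor signalling, at 3.65 ± 0.17 (adjusted p = 9.12e-06) and of Fkbp5, a co-chaperone of the receptor itself, at 3.07 ± 0.15 (adjusted p = 1.26e-05). Errfi1 was 4.17 (log2) above untreated with LPS alone and differed by -0.52 ± 0.15 between LPS + Dex and LPS (adjusted p = 0.254, and 0.000788 with mouse as a replicate block). The study also lists it among the genes that Dex represses. With LPS alone Dusp1 was 5.36 (log2) above untreated, and LPS + Dex was 0.89 ± 0.15 above LPS (adjusted p = 0.0352). Fkbp5 was at 3.61 and 3.32 log2 CPM untreated and at 6.40, 6.79 and 6.43 in mice A to C with LPS + Dex. Sgk1, a serum- and glucocorticoid-regulated kinase, was at 7.40 and 7.0 untreated and at 9.26, 8.91 and 9.64 with LPS + Dex, a rise of 2.08 ± 0.26 (adjusted p = 0.00225). Its promoter window held the only match to the full palindromic glucocorticoid response element among the genes with a window, a share of 0.0128%. For that reason it is named and shown, at chr10:21993676-21993740 on the plus strand, with the match in capitals.
Sgk1: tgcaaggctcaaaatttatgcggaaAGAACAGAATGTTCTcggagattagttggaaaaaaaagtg

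Interferon-stimulated genes gave 10 higher and 0 lower of 30, against 4.10% higher over all genes. Their median of 0.04 (log2) was below those of the lists above. In WT the median over these 30 genes was 0.69, with an untreated group that held the library that stood apart. The difference between the genotypes was not tested for the list. Gbp5, a guanylate-binding protein, was at 1.87 and 2.02 log2 CPM untreated and at 6.45, 6.89 and 5.52 in mice A to C with LPS + Dex, a rise of 4.34 ± 0.47 (adjusted p = 0.000976). Cd69, an early activation marker, rose by 4.0 ± 0.10 (adjusted p = 5.44e-07), and Oasl1, an OAS-like protein that limits interferon production, by 2.35 ± 0.33 (adjusted p = 0.00372). Without the untreated library of mouse A, 6 members were called higher. Heat shock chaperones gave 4 higher and 0 lower of 14, again against 4.10% higher over all genes, with a median of 0.15. Hspa1a and Hspa1b, near-identical HSP70 genes between which reads are hard to assign, rose by 3.42 ± 0.40 (adjusted p = 0.00158) and 2.12 ± 0.25 (adjusted p = 0.00162). The co-chaperone gene Dnajb4 rose by 1.81 ± 0.08 (adjusted p = 8.7e-06).

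Genes of macrophage growth, homing and lineage gave 4 higher and 1 lower of 26, against 4.10% higher and 1.58% lower over all genes, and had a median of -0.01 (log2). Cebpb, a transcription factor of myeloid cells, rose by 1.45 ± 0.31 (adjusted p = 0.0307), a call that was lost without either untreated library. C5ar1, the receptor of complement C5a, rose by 1.36 ± 0.10 (adjusted p = 0.000128), and Id3, an inhibitor of helix-loop-helix factors, by 1.32 ± 0.11 (adjusted p = 0.000226). Irf8, a transcription factor of the monocyte lineage, was the member called lower, at 6.13 and 6.04 log2 CPM untreated and 5.55, 5.27 and 5.57 in mice A to C with LPS + Dex. The call of Irf8 was lost when either untreated library or the LPS + Dex library of mouse B was left out. The 12 reference genes gave 0 calls in either direction, with a median of -0.04.

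**Figure D3:**
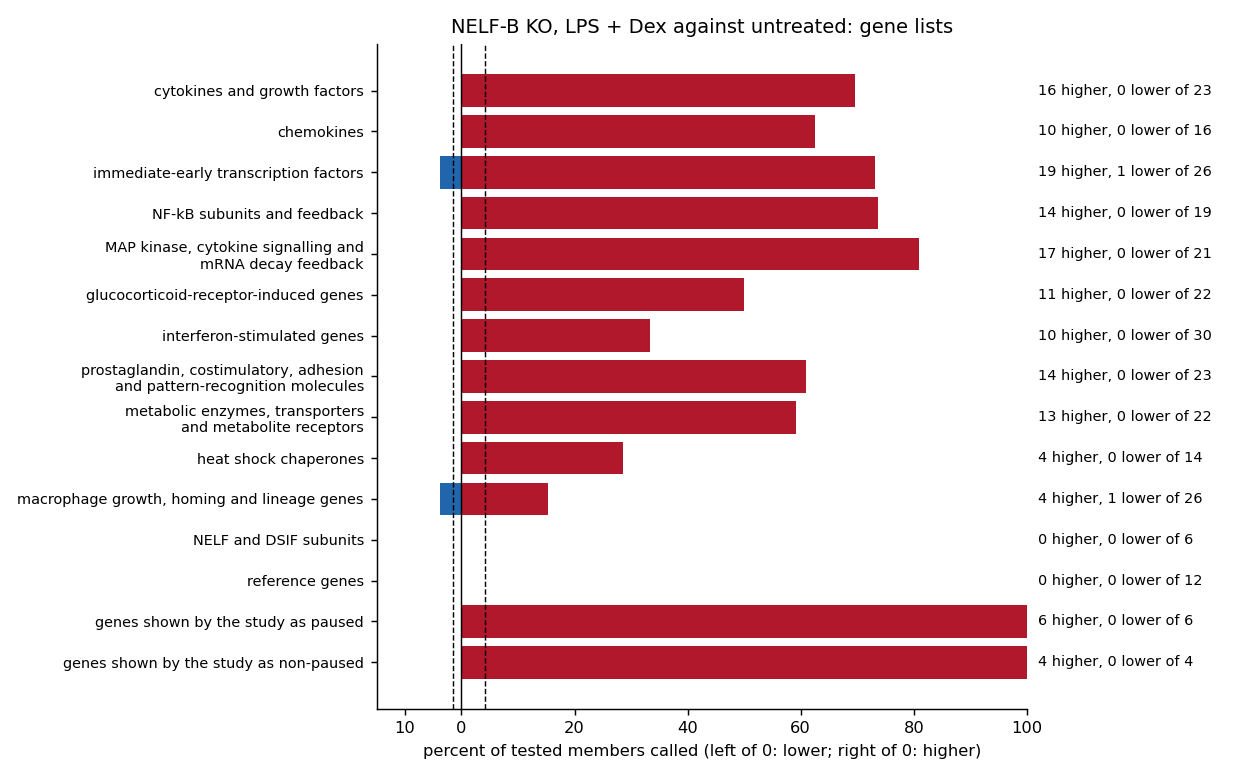
Share of the tested members of each gene list called higher (red, right of 0) or lower (blue, left of 0) in NELF-B KO BMDM with LPS + Dex, in percent, with the counts beside each bar. Dashed lines mark the shares over all genes, 4.10% higher and 1.58% lower. The inflammatory and feedback lists lie far to the right of the line. The NELF and reference lists have no bar, and at these shares few calls would be met in lists of 6 and 12 genes.

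The falls were smaller and included genes of several kinds. Ier5l, a relative of an immediate-early gene, was at 1.72 and 2.38 log2 CPM in the untreated libraries of mice A and B and at -0.11, -1.17 and 0.54 in the LPS + Dex libraries of mice A to C, a change of -2.30 ± 0.64 (adjusted p = 0.0896). Gadd45g, a stress-response protein that acts on MAP kinase signalling, was at 3.88 and 4.41 untreated and at 2.11, 1.86 and 2.65 with LPS + Dex, a change of -1.94 ± 0.32 (adjusted p = 0.00888). In both genes mouse B had the lowest LPS + Dex level and mouse C the highest.

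Cd300lb, an activating receptor of myeloid cells, was at 7.73 and 7.53 log2 CPM untreated and at 6.08, 5.51 and 5.99 in mice A to C with LPS + Dex, a change of -1.77 ± 0.20 (adjusted p = 0.00116). Angptl4, an inhibitor of lipoprotein lipase, was at 4.29 and 4.30 untreated and at 2.66, 2.26 and 2.71 with LPS + Dex, a change of -1.75 ± 0.21 (adjusted p = 0.00152). Txnip, an inhibitor of thioredoxin and of glucose uptake, was at 6.25 and 6.20 untreated and at 4.59, 4.95 and 4.59 with LPS + Dex, a change of -1.52 ± 0.18 (adjusted p = 0.00144). Further genes among the 12 largest falls were Sertad3 (-1.88), Zfp157 (-1.88), Zfp870 (-1.73), 2810008D09Rik (-1.57), Armc7 (-1.52) and Fam84b (-1.52), with adjusted p from 4.96e-05 for Armc7 to 0.0631 for 2810008D09Rik. Of the 12, Ier5l, Gadd45g, Zfp157, Zfp870, 2810008D09Rik and Fam84b were no longer called when a single untreated library was left out, that of mouse B or, except for Gadd45g, either of them.

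Genes with a symbol of the form Zfp followed by a number, most of which encode zinc finger proteins, were examined after the falls had been seen. Of 182 tested, 40 were lower and 8 higher, so that 22.0% were lower against 1.58% of all genes, and they made up 26.3% of the 152 genes called lower. The median change over all 182 was -0.28 (log2), and the medians of the same-mouse differences of A and B were -0.25 and -0.35. The count of 40 fell to 16 without the untreated library of mouse A, to 9 without that of mouse B and to 26 without the LPS + Dex library of mouse B. The 8 called higher included Zfp36 at 3.50 ± 0.10 (adjusted p = 5.48e-07), which encodes the mRNA-destabilising protein tristetraprolin, and Zfp36l1 at 2.07 (log2), which encodes a relative of it. With LPS alone the median over the 182 genes was -0.36 from untreated.

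The next comparison asked how the KO libraries given LPS + Dex stood beside the KO libraries given LPS alone, from the same 3 mice. Of 9614 genes, 118 were higher (1.23%) and 85 lower (0.884%) at an adjusted p under 0.1 and a change of more than 1.3-fold. With mouse as a replicate block the counts were 258 higher and 236 lower. Leaving out any single LPS or LPS + Dex library gave 73 to 92 higher and 33 to 58 lower. The comparison with LPS shares its LPS + Dex libraries with the comparison with untreated, so that their values are set side by side and no overlap was tested.

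The largest rises against LPS were in genes whose level with LPS alone was less than 1 log2 unit above untreated, or below it. Fzd4, a Wnt receptor, was at -0.97 and -1.56 log2 CPM in the untreated libraries of mice A and B, at -2.77, -1.72 and -1.79 in the LPS libraries of mice A to C and at 3.52, 3.76 and 3.65 with LPS + Dex. It was 5.74 ± 0.39 (log2) above LPS (adjusted p = 0.000427) and 4.91 ± 0.43 above untreated (adjusted p = 0.000299). Tsc22d3, which encodes the glucocorticoid-induced leucine zipper GILZ, was at 5.93 and 5.68 untreated, at 4.54, 4.33 and 4.35 with LPS and at 8.29, 8.21 and 8.17 with LPS + Dex. LPS alone lowered it by 1.40 on the log2 scale (-1.40; adjusted p = 0.000112), whereas LPS + Dex was 3.82 ± 0.09 above LPS (adjusted p = 2.05e-06) and 2.41 ± 0.10 above untreated (adjusted p = 6.75e-06).

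Fkbp5 was at 3.40, 3.58 and 3.34 log2 CPM with LPS in mice A to C, within the range of its untreated libraries, and LPS + Dex was 3.10 ± 0.13 (log2) above LPS (adjusted p = 4.26e-05). Prss16, a thymus-specific serine protease, was 3.05 ± 0.37 above LPS (adjusted p = 0.00819), and Pfkfb3 was 2.83 ± 0.24 above LPS (adjusted p = 0.00133). Of the 22 genes known to be induced by the glucocorticoid receptor, 7 were higher than with LPS and 0 lower. Over all genes, 1.23% were higher and 0.884% lower than with LPS. The 7 genes were Fkbp5, Tsc22d3, Per1, Dusp1, Klf9, Mt2 and Ddit4. With the replicate block, Errfi1 was called lower. Sgk1 was 0.06 (log2) above LPS with an adjusted p of 1.

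The largest falls against LPS were in genes that LPS alone had raised. Plau, the urokinase plasminogen activator, was at 4.15 and 4.57 log2 CPM untreated in mice A and B, at 6.09, 6.42 and 5.84 with LPS in mice A to C and at 3.98, 4.0 and 3.76 with LPS + Dex, which was 2.21 below LPS on the log2 scale (-2.21 ± 0.17; adjusted p = 0.000868). Every LPS + Dex library was thus below both untreated ones, with a difference of -0.45 ± 0.19 from untreated that was not called (adjusted p = 0.316). Olr1, a scavenger receptor for oxidised lipoprotein, was at 1.3 and 0.28 untreated, at 5.67, 5.80 and 5.11 with LPS and at 3.76, 3.62 and 3.28 with LPS + Dex, a difference of -1.98 ± 0.29 from LPS (adjusted p = 0.0168) and of 2.76 ± 0.32 from untreated (adjusted p = 0.00155).

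Il1b and Ptgs2 also remained well above untreated while they were lower than with LPS. Il1b was at 9.88, 10.37 and 9.96 log2 CPM with LPS in mice A to C, and LPS + Dex differed from LPS by -1.68 ± 0.23 (adjusted p = 0.0128). Ptgs2 was at 9.03, 9.12 and 8.49 with LPS, and LPS + Dex differed from it by -1.66 ± 0.25 (adjusted p = 0.0182). Gadd45a, a stress-response relative of Gadd45g, was at 3.55 and 3.84 untreated, at 6.12, 5.69 and 6.64 with LPS and at 4.58, 4.02 and 4.86 with LPS + Dex. It differed from LPS by -1.66 ± 0.28 (adjusted p = 0.0308) and from untreated by 0.79 ± 0.31, which was not called (adjusted p = 0.266).

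Among the 12 largest rises from untreated, Il1b was called lower than with LPS, and none was called higher without the replicate block. Ifnb1 was at 5.09, 6.76 and 5.02 log2 CPM with LPS in mice A to C and at 3.42, 4.87 and 3.58 with LPS + Dex. The difference of -1.67 ± 0.53 (log2) was not called (adjusted p = 0.355) but was called with mouse as a replicate block (adjusted p = 0.0022). Il6, at 5.79, 6.83 and 5.31 with LPS, likewise differed by -1.08 ± 0.45 (adjusted p = 0.695, and 4.37e-05 with the replicate block). Cxcl1 was at 8.25, 8.74 and 8.40 with LPS and differed by 0.16 ± 0.16 (adjusted p = 1). For Cxcl1 each LPS + Dex library was slightly above the LPS library of the same mouse, whereas for Ifnb1 and Il6 each was below it. With the replicate block, Il1a, Areg and Cxcl10 were also called lower than with LPS (adjusted p = 1.81e-06, 0.0132 and 0.00885). Sele, by contrast, was 2.03 ± 0.47 above LPS, with an adjusted p of 0.112, and was called higher with the replicate block (adjusted p = 0.00117).

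A few further genes, chosen after their values were seen, were called in both comparisons. Edn1, which encodes the vasoconstrictor endothelin-1, was at -0.65 and -1.45 log2 CPM untreated in mice A and B, at 2.79, 2.23 and 2.47 with LPS in mice A to C and at 4.96, 3.83 and 4.86 with LPS + Dex, a difference of 2.06 from LPS (adjusted p = 0.0322). Cited2, a transcriptional co-regulator, was at 5.74 and 6.29 untreated, between 8.77 and 8.98 with LPS and between 9.98 and 10.08 with LPS + Dex. Both genes thus rose with LPS and were higher again with LPS + Dex. Enc1, an actin-binding protein, was at 6.25 and 5.91 untreated, at 6.24, 5.61 and 6.17 with LPS and at 4.79, 4.46 and 4.55 with LPS + Dex, with the untreated and LPS libraries overlapping and the LPS + Dex libraries below both.

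**Figure D4:**
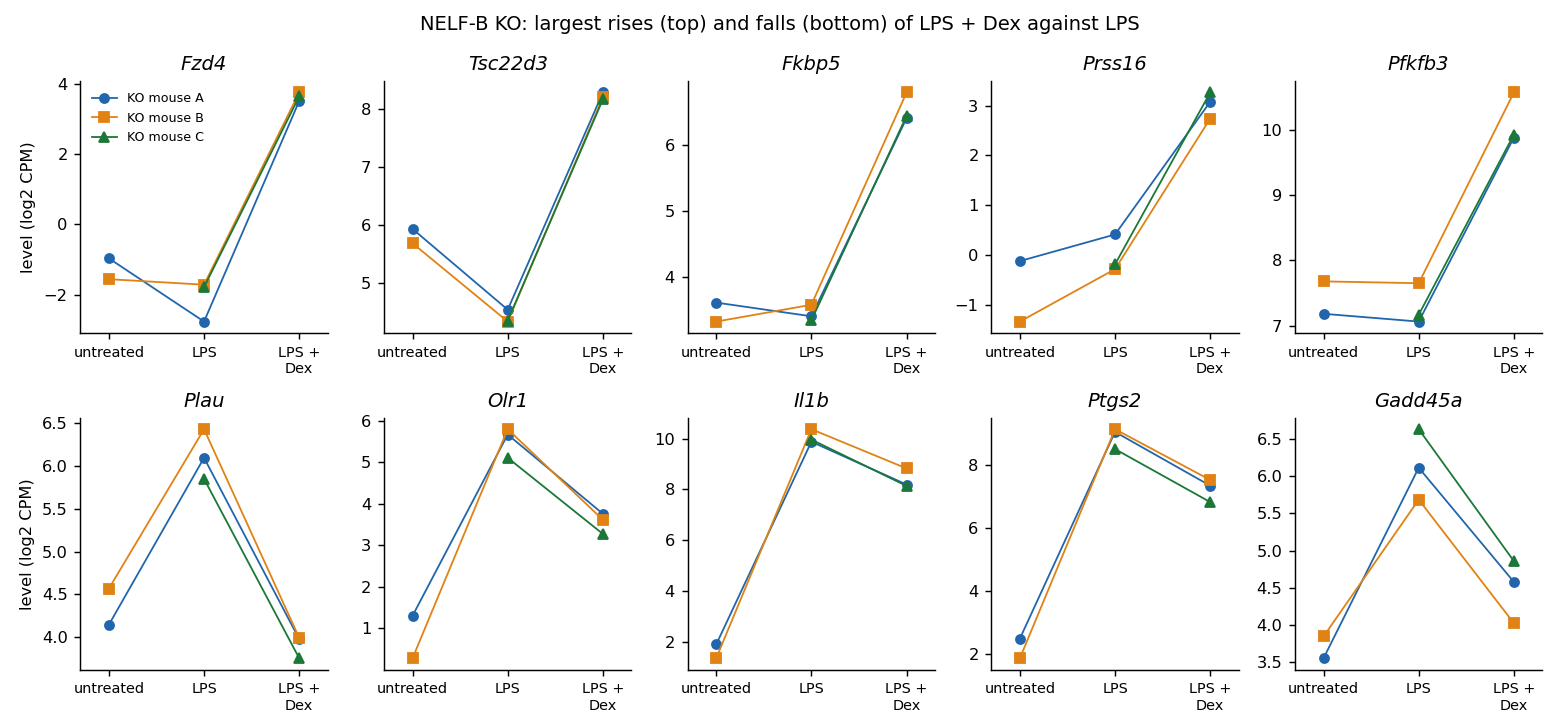
Level (log2 CPM, vertical axis, a separate scale in each panel) in untreated, LPS and LPS + Dex libraries of NELF-B KO BMDM, with a line for each mouse. The upper row shows the 5 genes that were highest above LPS (Fzd4, Tsc22d3, Fkbp5, Prss16 and Pfkfb3) and the lower row the 5 that were furthest below it (Plau, Olr1, Il1b, Ptgs2 and Gadd45a); all 3 mice moved in the same direction between LPS and LPS + Dex in each panel.

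The study lists 201 genes as Dex-repressed, a choice it made in the WT libraries of the series. It first took the genes that LPS induced more than 1.5-fold and kept those whose induction Dex attenuated more than 1.3-fold. A rise with LPS and a level below LPS with Dex were thus part of the choice in WT. The shares over all genes given below are therefore not those of LPS-induced genes. Of the 201 genes, 173 were tested here. With LPS + Dex, 111 (64.2%) were higher than untreated in KO macrophages, against 4.10% of all genes, and 0 were lower. Their median was 1.24 (log2) above untreated with LPS + Dex and 1.72 above untreated with LPS. Against LPS, 55 (31.8%) were called lower and 0 higher, where 0.884% of all genes were lower, and the group mean was below LPS in all 173. The median difference from LPS over mice A to C was -0.55, -0.61 and -0.55. With LPS + Dex, 48 of the 173 lay within 1.5-fold of untreated.

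Some Dex-repressed genes served the study as examples of paused and non-paused genes. All 6 paused and all 4 non-paused examples were higher than untreated, and the study had drawn them from genes that LPS induced. Among the paused genes, Tnf, the cytokine tumour necrosis factor, was at 5.29 and 6.09 log2 CPM untreated in mice A and B, at 11.74, 11.87 and 11.63 with LPS in mice A to C and at 10.75, 10.48 and 10.46 with LPS + Dex. It was 4.87 ± 0.22 (log2) above untreated (adjusted p = 8.7e-06) and differed from LPS by -1.18 ± 0.20 (adjusted p = 0.0296). Errfi1, Ccl2 (a monocyte-attracting chemokine), Btg2 (an antiproliferative protein), Myc (a growth-promoting transcription factor) and Hilpda (a lipid droplet protein) were 3.65, 3.05, 2.73, 2.17 and 1.40 above untreated, with adjusted p from 9.12e-06 for Errfi1 to 0.0271 for Hilpda. Hilpda was not called without the untreated library of mouse B. The difference from LPS was called for Btg2 (-0.55, adjusted p = 0.076). It was not called for Errfi1 (-0.52), Ccl2 (-0.87), Myc (-0.53) and Hilpda (-0.62), all of which had an adjusted p under 0.01 with mouse as a replicate block.

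Among the non-paused genes, Cd83, a surface marker of activated antigen-presenting cells, was at 5.25 and 5.37 log2 CPM untreated in mice A and B, at 8.45, 8.63 and 8.43 with LPS in mice A to C and at 7.21, 7.28 and 7.22 with LPS + Dex. It was 1.93 ± 0.09 (log2) above untreated (adjusted p = 8.7e-06) and differed from LPS by -1.26 ± 0.08 (adjusted p = 0.000282). Lif, a cytokine of the interleukin-6 family, was 3.26 ± 0.42 above untreated (adjusted p = 0.0024), and its same-mouse rises in A and B were 2.65 and 4.20. For Lif and Il1a the differences from LPS, -1.42 in both, were not called without the replicate block (adjusted p = 0.187 and 0.307) and were called with it (adjusted p = 0.0029 and 1.81e-06).

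The last comparison asked whether the change from untreated to LPS + Dex differed between the genotypes. The interaction test in limma called 0 of 9614 genes (0.0%) at an adjusted p under 0.1 and a difference of more than 1.5-fold. At an unadjusted p under 0.05 and the same fold, 95 genes passed, and 142 passed without the fold, 1.48% of all genes. With mouse as a replicate block, 0 genes were called and 131 passed at the unadjusted p and the fold. Without the fold, 3.28% of all genes passed with the block. Where no gene differs, a share of 0.05 would pass at this p, so these counts do not show a difference. The WT untreated group held the library that stood apart, and without that library 0 genes were called. Without the other WT untreated library, which left the one that stood apart as the only WT untreated library, 3483 genes were called.

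Of the 5 genes with the smallest p, all had the larger change in the KO libraries. Phlda1, a pleckstrin homology-like protein, was at 0.79 and 1.75 log2 CPM untreated and at 5.95, 6.28 and 5.72 with LPS + Dex in KO mice A to C, a rise of 4.71 ± 0.29 (log2). In WT it was at 1.28 and 1.52 untreated and at 4.10, 4.22 and 4.22 with LPS + Dex in WT mice A to C. The difference of the responses was 1.93 ± 0.37, with an unadjusted p of 0.000149 and an adjusted p of 0.715 in limma. Phlda1 was the gene called when the untreated library of KO mouse B was left out. Ifrd1, an interferon-related regulator, rose by 3.0 ± 0.10 in KO and by 1.96 in WT, a difference of 1.03 ± 0.19 (unadjusted p = 0.000134, adjusted p = 0.715 in limma).

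Chka, choline kinase alpha, rose by 2.09 ± 0.14 (log2) in KO, and by 0.27 and 1.57 in the same-mouse pairs of WT mice A and B. Dnajb1, an HSP40 co-chaperone, rose by 0.80 ± 0.08 in KO and changed by -0.34 and 0.25 in the WT pairs. Odc1, the rate-limiting enzyme of polyamine synthesis, rose by 1.01 ± 0.14 in KO and changed by -0.14 and 0.57 in the WT pairs. The adjusted p of the difference was 0.798 in limma for each of these 3 genes. In each of the 3 the pair of WT mouse A, whose untreated library stood apart, gave the smaller value.

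The 12 largest rises in KO macrophages were compared with those of WT. Because the genes were chosen by their rise in KO, the choice itself favours a larger rise in KO than in WT. Their difference between the responses ranged from -0.78 ± 0.43 (log2) for Cxcl10 to 1.13 ± 0.32 for Il1b, with an adjusted p of 0.798 for both in limma. Without the WT untreated library that stood apart, it ranged from -0.35 ± 0.43 for Cxcl10 to 1.5 ± 0.72 for Areg, which had at most 1 read in a KO untreated library, and was 1.26 ± 0.37 for Il1b. Cxcl1 rose by 8.29 in KO and by 8.14 in WT, and Il6 by 7.36 and 7.0.

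**Figure D5:**
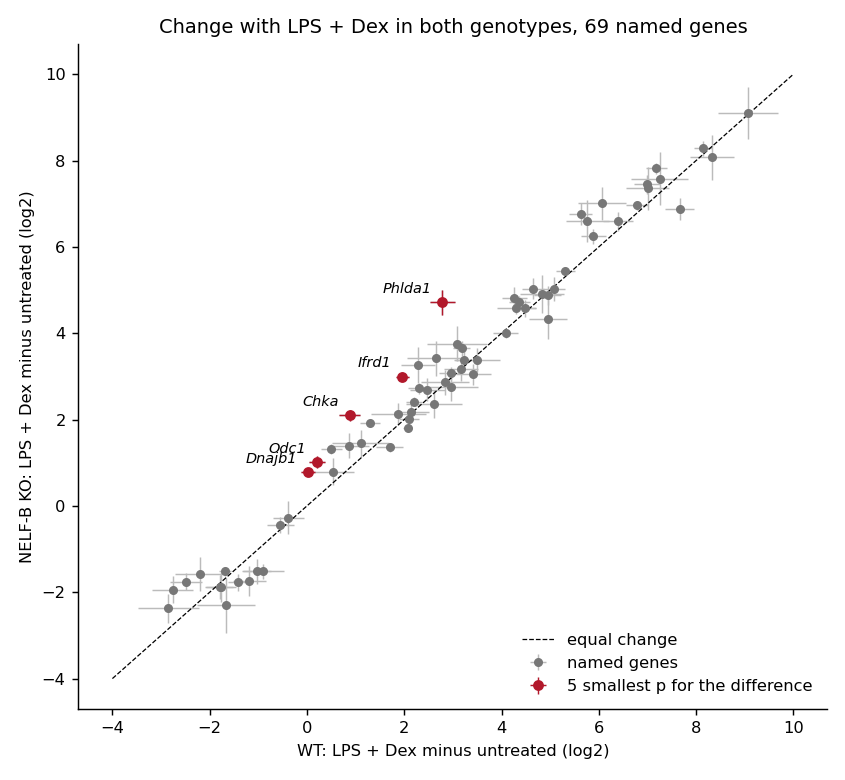
Change from untreated to LPS + Dex (log2) in NELF-B KO BMDM (vertical axis, fit of the 8 KO libraries) against that in WT BMDM (horizontal axis, fit of all 16 libraries) for the 69 named genes, with SE bars. Most points lie near the dashed line of equal change; the 5 genes with the smallest p for the difference (red: Phlda1, Ifrd1, Chka, Odc1 and Dnajb1) lie above it, and none passed the adjusted threshold.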

How the data were processed

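RNA-seq was performed on polyA RNA from BMDM. Per the labels and the methods of the study, the authors mapped paired reads to mm10 with CLC Bio software, took the uniquely mapped reads in exons as gene counts, normalised these in edgeR and deposited log2 CPM. Their processing notes also name CASAVA 1.8 and FastQC. The deposited columns of the authors' own p-values and FDR for their comparisons were not used. Every deposited value under 3 CPM was a whole multiple of 1 read within 0.1 read or the rounding of the deposited value. From these steps, low read counts and the library totals over the 9614 genes were recovered. Intervals of read ratios were exact (Clopper-Pearson), and intervals and floors cover counting error only.

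Groups were compared with limma 3.58.1 (R 4.3.3; lmFit, then eBayes with a trend) on the deposited log2 CPM, without a further filter or pseudocount. The 8 KO libraries entered a single fit without a block, and the genotype difference used all 16. P-values were two-sided and adjusted over all 9614 genes by Benjamini-Hochberg. Libraries of the same mouse deviated together: the correlation of the difference between mice A and B was 0.831 between untreated and LPS + Dex, and deviations in LPS and LPS + Dex correlated at 0.781 to 0.902. The labels give the mouse, and a fit with mouse as a replicate block was an alternative. Other parts of the labels, whose meaning is not stated, also differed between the KO mice. A difference between mice cannot be told apart from whatever these parts stand for. The fits were tested on simulated data.

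The members and gene lists were chosen with earlier results of these data known, and no list was tested. Named genes were Nelfb, the genes the study shows as paused or non-paused, the 12 largest called rises and falls without overlap, the 3 largest called changes per list, the 5 largest called changes each way against LPS and the 5 smallest p of the genotype difference. The largest of the 12 falls is not reported here. Others are stated as chosen after their values were seen. Gene positions are from GENCODE vM21 and promoter windows from RefSeq (GRCm38.p6, the mm10 assembly). For 81.0% of the 9614 genes, 80.5% of those called higher and 81.6% of those called lower a window was matched. Alternatives were fits with other libraries, a block, median centring, log2(CPM + 1), genes with a mean log2 CPM above 1, voom on the recovered reads, other thresholds and leaving out each library.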

Additional observations from a re-analysis of the deposited data

How the results depend on the processing

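Against untreated, the counts of 394 higher and 152 lower stayed within 1.5 times under fits of 5 or 16 libraries, median centring, log2(CPM + 1), a mean log2 CPM above 1, voom and unadjusted or stricter p. With mouse as a replicate block the lower count was 236 with 8 KO libraries and 238 with 5. Without the block, it was 43 beyond 2-fold. Leaving out single KO libraries gave 313 to 407 higher and 54 to 161 lower, with the lowest values without an untreated library. Against LPS, the replicate block gave 258 higher and 236 lower in place of 118 and 85. Leaving out single LPS or LPS + Dex libraries gave 73 to 92 and 33 to 58. The lower count was 36 and 35 without the LPS + Dex libraries of mice A and C, 33, 46 and 55 without the LPS libraries of mice A, B and C, and the higher count was 73 and 76 without the LPS + Dex or the LPS library of mouse A. For the genotype difference, 0 genes became 95 at an unadjusted p under 0.05, and leaving out single libraries gave 0 to 3483. The cause of these shifts was not tested. Of the 69 named genes none reversed direction once called, and 8 lost significance under at least 1 of 17 alternatives. Beside the 6 falls already named they were Cebpb and Hilpda, as given above. The counts of Zfp genes under the alternatives were added after the data were seen. Against untreated, the blocked fit lost 18 calls and added 213, and it changed no call of the 69 genes named by rule. Klf10, named outside that rule, lost its call. With only 2 untreated libraries, the depth of 30648000 to 38526000 reads limits genes at a few reads, and the number of mice limits the rest.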
